A study of Mus musculus with 2 samples.

Results

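The genes described here code for the matrix around neurons in the brain: the 4 chondroitin sulfate proteoglycans of the lectican family (Acan, Bcan, Ncan and Vcan), the link proteins Hapln1 and Hapln4, the tenascins Tnr and Tnc, and the glycoprotein reelin (Reln). They are 9 of 21853 protein-coding genes of the GENCODE M21 annotation, taken by name and not by any measured value. The choice was made with earlier results of these data known. Perineuronal nets are dense sheets of matrix around the cell body and proximal dendrites of some neurons, above all fast-spiking interneurons that make parvalbumin. In them a backbone of hyaluronan carries lecticans, link proteins pin the lecticans to the backbone, and tenascin-R ties the lecticans to each other. In the hippocampus such nets also surround pyramidal cells of field CA2, and reelin is secreted in the adult by interneurons and by Cajal-Retzius cells.

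Open chromatin was measured by DNase-seq, which maps the places in nuclear DNA that DNase I can reach and cut. The tissue was labelled as a layer of hippocampus, without naming the layer, from male B6CASTF1/J mice aged 2 months. The strain name stands for the F1 offspring of B6 and CAST parents, and no other genotype, treatment or tissue was in the series. The 2 samples formed 1 group, biological replicates 1 and 2, which had separate biosample entries and the same donor entry. No label said that they were separate animals, so the spread between them may be technical, and with 1 group no comparison between conditions was possible. Each height pools both parental alleles. In bulk tissue, fewer cells of a type and less access per cell cannot be told apart.

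A peak is a stretch of accessible chromatin called by the authors, and its height is their signal value; its scaling is stated in none of the sources used here. A shared site is the overlap, of at least 1 bp, of peaks from both replicates. Its height in each replicate is that of the highest whole peak overlapping it, so the maximum may lie outside the overlap. A promoter had a peak where this overlapped 500 bp on either side of a protein-coding start, and a locus was the gene body plus 50 kb on each side. Replicate 1 held 132685 peaks and 255536 footprints (short protected stretches), and replicate 2 held 59880 and 111355. Sequencing depth was unknown, but heights moved in steps of 0.00535 in replicate 1 and 0.0108 in replicate 2, a ratio of 2.01. Over all 50780 shared sites replicate 2 was the lower, with a median log2 ratio to replicate 1 of -0.48. As a check of the tissue, 4 of 5 excitatory neuron markers had a shared promoter peak. These were Camk2a (3.67 and 2.73), Neurod2 (3.40 and 2.30), Tbr1 (1.49 and 1.19) and Neurod6 (1.79 and 0.861). Slc17a7 had a peak in replicate 1 only (1.32). Of the markers of hippocampal fields, 1 of 4 had a shared promoter peak (Wfs1, while Prox1, Zbtb20 and Fibcd1 had a peak in replicate 1 only). The counts were 2 of 6 for interneuron, 2 of 5 for Cajal-Retzius, 2 of 5 for astrocyte, 2 of 4 for oligodendrocyte precursor, 1 of 4 for oligodendrocyte, 0 of 4 for microglia and 0 of 3 for endothelial markers, beside 57.1% of all protein-coding genes. Heights below are given for replicate 1 and then replicate 2.

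Of the 9 genes, 6 had a promoter peak shared by both replicates (Bcan, Ncan, Vcan, Hapln1, Tnr and Tnc), a share of 66.7% beside 57.1% of all protein-coding genes. In replicate 1 alone 8 of 9 had a promoter peak (63.4% of all genes), and in replicate 2 alone 6 of 9 (58.5%). Hapln4 and Reln had a peak in replicate 1 only, and Acan had none in either replicate, as did 35.9% of all genes. In the authors' shorter and stricter lists the counts were 7 of 9 in replicate 1 (58.8% of all genes), 4 of 9 in replicate 2 (52.5%) and 3 of 9 in both (Ncan, Hapln1 and Tnr), beside 51.2% of all genes. With 9 genes, a share of this size is not read as a difference from all genes.

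Where these promoters had peaks, most were low. Among genes with a promoter peak the median height was 3.67 in replicate 1 and 2.43 in replicate 2. Of the members with a peak, 7 of 8 were below it in replicate 1 and 5 of 6 in replicate 2, and Ncan was the exception in both. By the mean of both replicates the order was Ncan (4.19 ± 1.76, SD, n = 2), Tnr (1.89 ± 1.06), Bcan (1.45 ± 0.0662), Hapln1 (1.10 ± 0.170), Vcan (1.05 ± 0.530) and Tnc (0.753 ± 0.0311). Heights of the replicates may be scaled differently, so the means and SDs also hold any difference of scale. Ncan was the highest member within each replicate (5.43 and 2.95), but the order of the others differed. In replicate 1 Tnr (2.64) was above Bcan (1.49), and Vcan (1.43) was above Hapln1 (1.22) and Tnc (0.775). In replicate 2 Bcan (1.40) was above Tnr (1.14), and Hapln1 (0.979) and Tnc (0.732) were above Vcan (0.678). The order of these genes was thus not separated by the replicates.

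**Figure D1:**
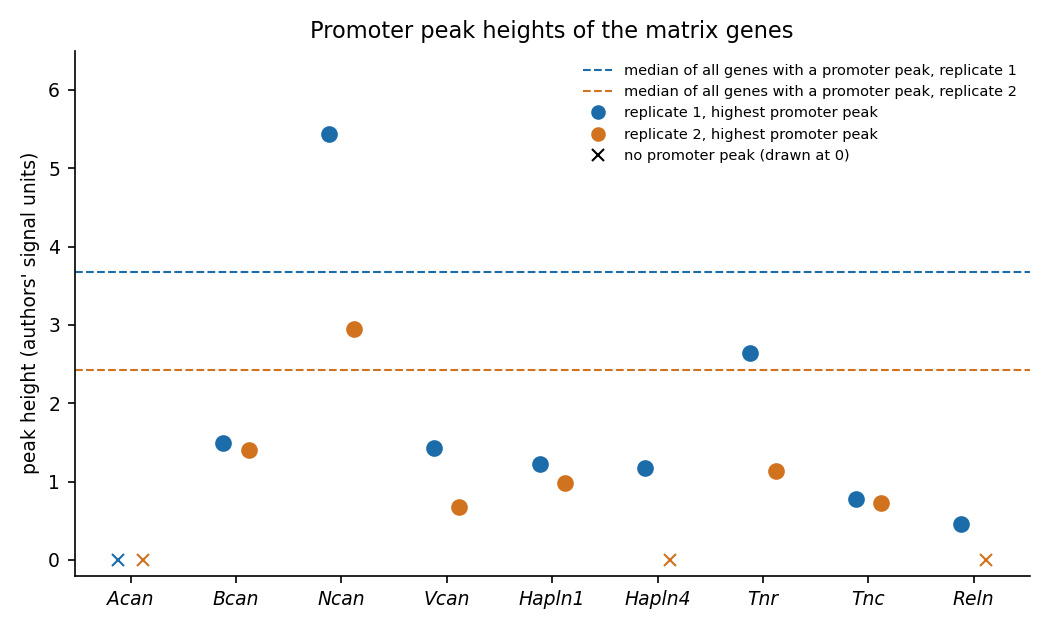
Height of the highest promoter peak of each gene (y axis, authors' signal units) in replicate 1 (blue) and replicate 2 (orange), with crosses at 0 where no peak was called and dashed lines at the median of all genes with a promoter peak. Ncan (5.43 and 2.95) lies above both medians, all other points lie below the median of their replicate, and Acan has no point.

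Among the lecticans, neurocan (Ncan, chr8:70093085-70120873, minus strand), a lectican made mainly in the nervous system, had the highest promoter peak. Its height was 5.43 in replicate 1 and 2.95 in replicate 2, at percentiles 70.8 and 64.6 of genes with a promoter peak. The lowest false discovery rate in the window was 1.19e-31 and 1.17e-08. Of 5 footprints in replicate 1 and 1 in replicate 2, the widest of replicate 1 (23 bp) and that of replicate 2 (19 bp) overlapped, centred 5 bp upstream of the start. The sequence of this site up to 30 bases past the start is shown (chr8:70120844-70120960, GRCm38.p6, minus strand), because the footprint found in both replicates covers the run in capitals.
Ncan promoter: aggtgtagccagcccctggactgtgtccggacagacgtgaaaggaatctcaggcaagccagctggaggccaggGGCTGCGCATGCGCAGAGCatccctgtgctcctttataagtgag
The capitals hold the motif GCATGCGC, known for the factor NRF1, on both strands, in overlapping matches that begin at bases 78 and 80 counted from the left. This motif was searched on either strand and stands in 3.65% of RefSeq promoters of protein-coding genes and in that of Ncan alone among the 8 members with a promoter in that table. It stands in the central 200 bases of 4.65% of the shared sites in these loci and of 2.17% of all shared sites. A match of letters is a description and not evidence that the factor binds.

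Brevican (Bcan, chr3:87987531-88000230, minus strand), the lectican most abundant in the adult brain, had a promoter peak that varied little between replicates. Its height was 1.49 in replicate 1 and 1.40 in replicate 2, at percentiles 23.3 and 21.5. The replicate 2 peak was absent from the shorter list. Versican (Vcan, chr13:89655312-89742509, minus strand), a lectican widespread in developing tissue, has 8 annotated start positions, more than any other member. Its highest promoter peak, 1.43 and 0.678, lay not at the first start but at an internal start (Vcan-209), in a shared site centred 2158 bp downstream of the first. At the first start the heights were 0.433 and 0.613, so by whole-peak heights replicate 2 was the higher there and the lower at the internal start. At the internal start the replicate 2 peak was 660 bp wide and that of replicate 1 was 220 bp wide. In the shorter list the 0.678 stood at 89740161-89740220, outside the replicate 1 peak (89740241-89740460). The internal starts of Vcan-204 and Vcan-208 had no peak in either replicate.

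Aggrecan (Acan, chr7:79053483-79115099, plus strand), the lectican often used to stain perineuronal nets, had no peak within 500 bp of either of its 2 starts and no interval listed under an FDR of 0.05 there. This depended on the annotated start. The RefSeq start lies 257 bp upstream of the GENCODE start, and a pair of replicate 1 peaks, with heights 0.487 and 0.364, ended 466 and 336 bp upstream of it, or 723 and 593 bp upstream of the GENCODE start. Replicate 2 had no peak there, and the lowest FDR under the nearer of these peaks in replicate 2 was 0.0442. The nearest shared site lay 26155 bp from the RefSeq start, inside intron 1. The RefSeq promoter is shown up to its start (chr7:79052976-79053225, GRCm38.p6, plus strand, CpG pairs in capitals), because its composition is set beside that of other RefSeq promoters.
Acan: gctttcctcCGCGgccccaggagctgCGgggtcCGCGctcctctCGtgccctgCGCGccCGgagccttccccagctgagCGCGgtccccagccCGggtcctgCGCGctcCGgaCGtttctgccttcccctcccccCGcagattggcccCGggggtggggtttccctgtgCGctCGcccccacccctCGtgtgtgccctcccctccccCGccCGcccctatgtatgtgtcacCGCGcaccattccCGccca
The 250 bases printed hold 26 CpG pairs. Over 300 bases the promoter was 74.0% G and C, at percentile 93.8 of RefSeq promoters. Of 1389 genes whose promoters were from 70% to 75% G and C, 89.1% had a shared promoter peak and 5.33% had none in either replicate.

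The link proteins differed in their peaks. Hapln1 (chr13:89539796-89611652, plus strand), the cartilage link protein that is also part of nets, had a shared peak of height 1.22 in replicate 1 and 0.979 in replicate 2, at percentiles 19.3 and 11.2. It was centred 465 bp upstream of the GENCODE start, at the edge of the window. It was not counted with a window of 200 bp or with 50% reciprocal overlap. From the RefSeq start, 840 bp further downstream, it lay 1216 bp away, and no peak of either replicate fell within 500 bp of that start. It was also the only shared site in the whole Hapln1 locus. Its sequence is shown for that reason (chr13:89539241-89539420, GRCm38.p6, plus strand), with the 2 bases where footprints of both replicates met in capitals.
Hapln1: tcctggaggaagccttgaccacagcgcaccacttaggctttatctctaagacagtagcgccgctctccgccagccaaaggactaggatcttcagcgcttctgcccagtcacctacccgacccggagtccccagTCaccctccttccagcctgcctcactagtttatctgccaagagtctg
Hapln4 (chr8:70083457-70090862, plus strand), the brain link protein that partners brevican, had a peak of height 1.17 over its start in replicate 1, with 1 footprint of 20 bp, and none in replicate 2. This peak was in the shorter list of replicate 1, and replicate 2 had no interval under an FDR of 0.05 in the window.

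Tenascin-R (Tnr, chr1:159523769-159931729, plus strand), the crosslinker of nets, had the highest promoter peak after Ncan in replicate 1, at 2.64, and reached 1.14 in replicate 2. The 2.64 was the height of a 220 bp peak over the start of Tnr-202, overlapped by a 403 bp peak of replicate 2 with height 1.04. The 1.14 of replicate 2 came from another shared site centred 482 bp downstream, where replicate 1 had 1.12. By whole-peak heights replicate 1 was thus 2.53 times as high as replicate 2 for the peaks over the start and level with it downstream. The replicate 2 peak over the start ran to base 159524080, past the end of the replicate 1 peak at 159523820. Its part in the shorter list (159523885-159523942) lay beyond that end. The 2.53 therefore does not compare heights at the start itself. Of the 3 further starts, that of Tnr-204 had a peak in replicate 1 only (0.834) and those of Tnr-201 and Tnr-203 had none. No promoter footprint was found in both replicates, among 7 in replicate 1 and 5 in replicate 2. The widest promoter footprint of all 9 genes, 36 bp, was seen here in replicate 1, and the shared site is shown with the replicate 1 footprints in capitals (chr1:159523678-159523798, GRCm38.p6, plus strand, up to 30 bases past the start).
Tnr promoter: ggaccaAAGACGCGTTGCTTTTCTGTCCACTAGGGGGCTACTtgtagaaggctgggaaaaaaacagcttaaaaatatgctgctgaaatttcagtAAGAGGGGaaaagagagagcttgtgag
Bases 27 to 38 of this print match the core pattern of the insulator protein CTCF in all 12 positions and lie inside that footprint.

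Tenascin-C (Tnc, chr4:63959785-64047015, minus strand), the tenascin of developing and injured tissue, had the lowest shared promoter peak by the mean of both replicates, 0.775 in replicate 1 and 0.732 in replicate 2, at percentiles 11.1 and 5.89. In replicate 2 alone that of Vcan (0.678) was lower. It was centred 121 bp upstream of the start of Tnc-204. The start shared by Tnc-201, Tnc-202 and Tnc-203 had a peak of 0.358 in replicate 1 only. Reelin (Reln, chr5:21884454-22344702, minus strand), which binds lipoprotein receptors on neurons, had a promoter peak of 0.460 in replicate 1, at percentile 4.35, and none in replicate 2. That peak was missing from the shorter list, its lowest FDR was 0.0136, and it was centred 225 bp downstream of the start of Reln-201. The nearest shared site was 37345 bp from the RefSeq start. The Reln promoter is shown (chr5:22344706-22344955, GRCm38.p6, minus strand, CpG pairs in capitals) beside that of Acan above, because these were the members richest in G and C.
Reln: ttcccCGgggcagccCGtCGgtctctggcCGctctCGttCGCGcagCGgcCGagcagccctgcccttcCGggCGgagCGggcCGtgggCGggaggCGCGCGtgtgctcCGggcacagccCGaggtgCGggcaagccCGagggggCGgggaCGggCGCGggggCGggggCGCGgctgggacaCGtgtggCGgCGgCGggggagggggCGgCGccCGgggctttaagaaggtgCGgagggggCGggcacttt
The 250 bases printed hold 37 CpG pairs. Over 300 bases it was 80.7% G and C, at percentile 99, and of 236 genes from 80% to 85%, 92.4% had a shared promoter peak and 2.97% had none in either replicate. Of the 9 members, 8 matched the RefSeq promoter table. The table holds a pair of promoters for Tnc, at 47.3% and 54.0%, and the richer one was used for every gene. The other 6 genes, which had a shared peak by their GENCODE starts, then ran from 48.0% (Tnr) to 64.0% (Bcan), around the median of 57% of all promoters in the table. One of them, Hapln1 (54.3%), had no peak at its RefSeq start. Over all genes matched to the RefSeq promoter table, the share with a shared peak by GENCODE starts went from 1.47% at 30% to 35% G and C up to 92.4% at 80% to 85%.

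**Figure D2:**
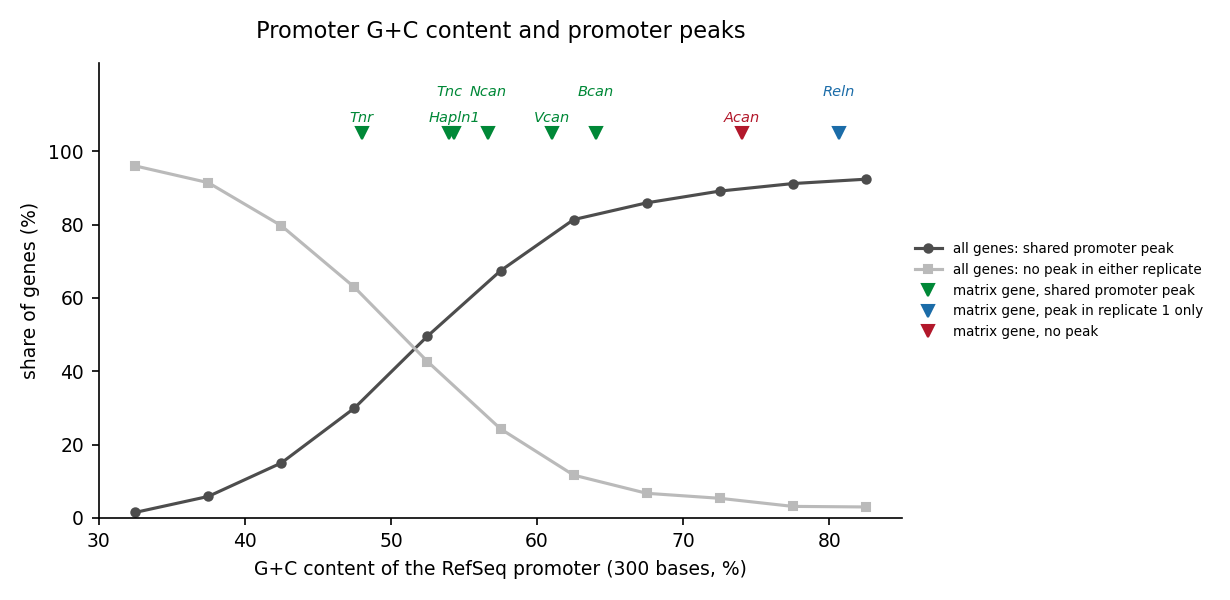
Share of protein-coding genes (y axis, %) with a promoter peak shared by both replicates (dark line) or with none in either (light line), by G and C content of the RefSeq promoter (the richest of each gene) in bins of 5% (x axis), with triangles above at the content of each matched matrix gene, coloured by its peaks at GENCODE starts. Only genes matched to the RefSeq promoter table are counted. Acan (74.0%, no peak) and Reln (80.7%, replicate 1 only) lie where the dark line is at 89.1% and 92.4%.

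Gene by gene, footprints in the promoter windows followed the peaks. In replicate 1, 8 of 9 genes had at least 1 (61.4% of all genes), in replicate 2, 6 of 9 (55.9%), and 5 of 9 had a footprint overlapping between replicates (46.8%), namely Bcan, Ncan, Vcan, Hapln1 and Tnc. In each of these 5 it was a single pair. That of Bcan was centred 164 bp upstream of its start in replicate 1 and 167 bp upstream in replicate 2, that of Tnc 88 and 86 bp upstream, and that of Hapln1 418 and 424 bp upstream. Vcan had the most promoter footprints, 8 in replicate 1 and 6 in replicate 2. The windows of its 8 start positions cover more bases than the single window of Ncan or Hapln1, and counts were not set against window length. Its overlapping pair lay 1884 bp downstream of the first start, in a replicate 2 peak but outside any replicate 1 peak. Acan had none in either replicate.

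The 9 loci together held 43 shared sites, of which 16 were at promoters (37.2%, beside 34.2% of all shared sites), 5 within 2500 bp of a start and 22 distal, over 2500 bp from every protein-coding start (51.2%, beside 55.5%). Of the 16 promoter sites, 10 belonged to the members and 6 to neighbouring genes. Of the 22 distal sites, 12 lay inside the body of a member. Over the central 200 bases the median G and C content was 57% in the 43 sites, beside 56% in all shared sites, and 54.5% in the 22 distal sites, beside 52% in all distal sites. Shared sites per 100 kb ranged from 0.582 at Hapln1 (1 site) to 6.52 at Hapln4 (7 sites), beside a median of 3.30 over the loci of all protein-coding genes. Ncan had 8 sites (6.26 per 100 kb), and its window overlaps that of Hapln4, with 6 sites counted in both. Both windows hold several other protein-coding genes, and only 1 site was nearest to Ncan and 1 to Hapln4. Bcan had 5 (4.44), Vcan 7 (3.74) and Acan 6 (3.71). Tnr had 9 (1.77), Tnc 2 (1.07) and Reln 4 (0.714).

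**Figure D3:**
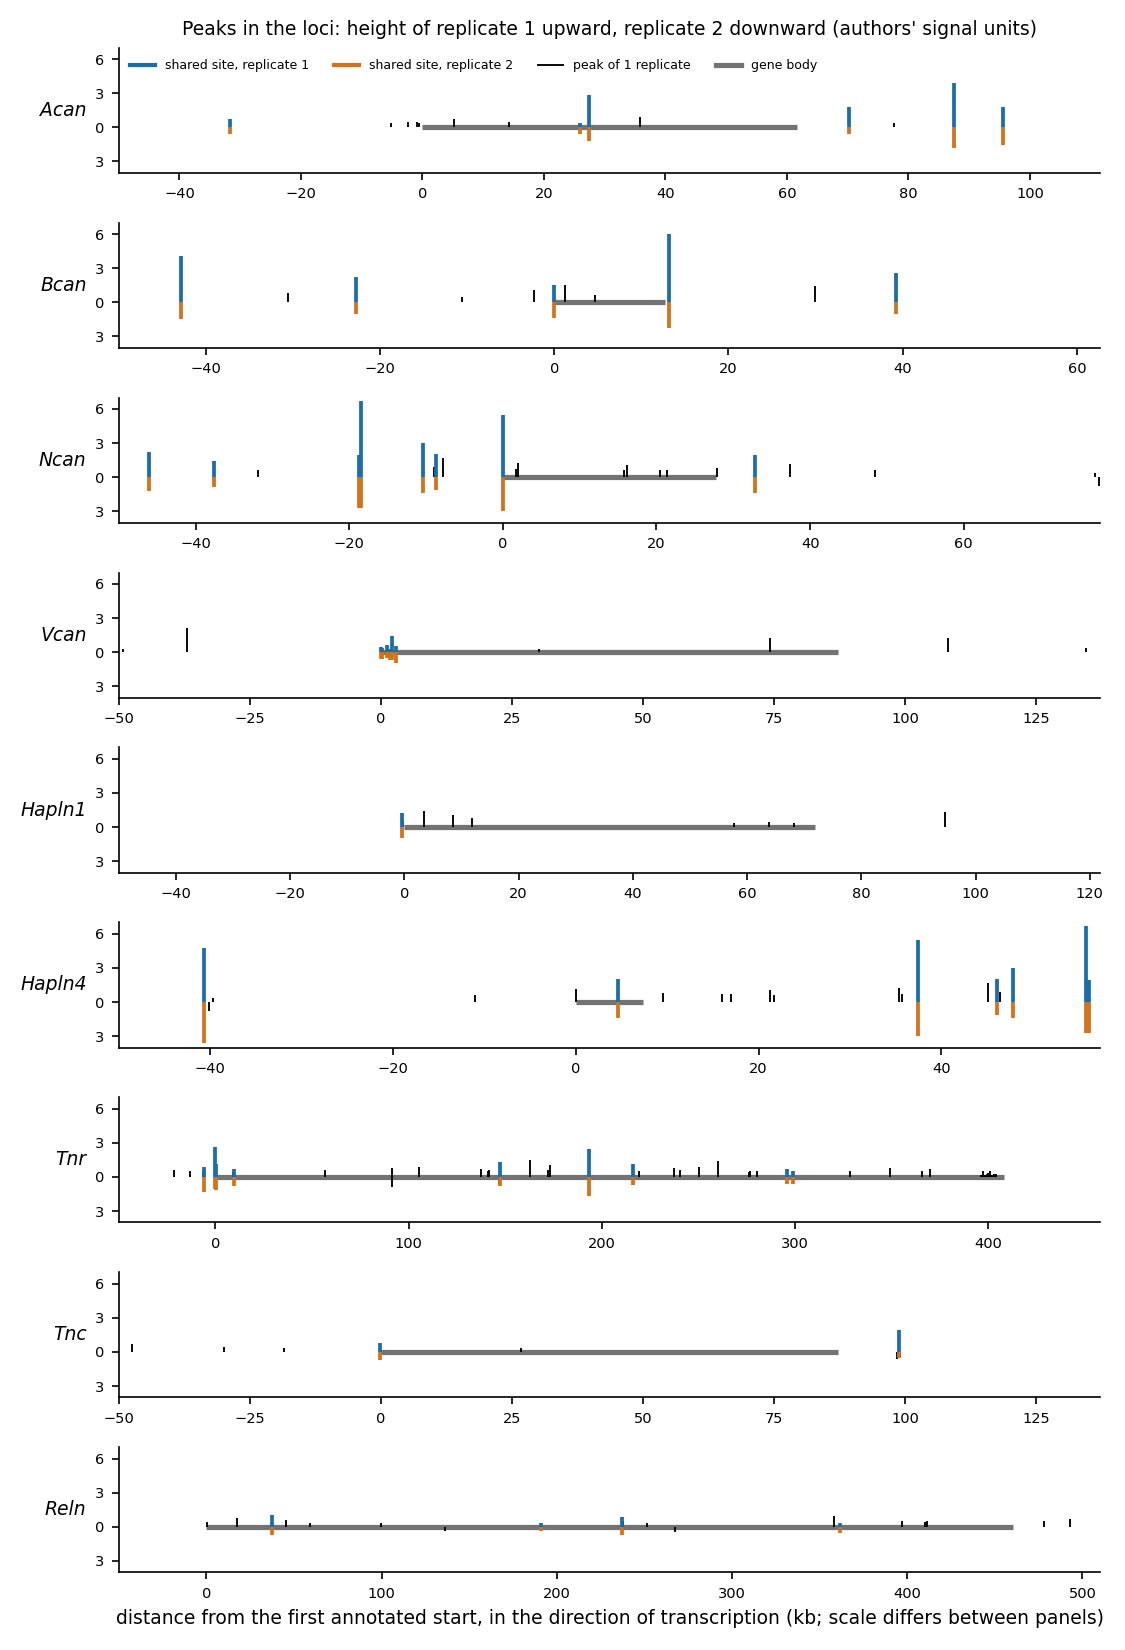
Peaks in the locus of each gene by distance from its first start (x axis, kb, scale differing between panels), with height (y axis, authors' signal units) upward for replicate 1 and downward for replicate 2, shared sites in colour, peaks of 1 replicate as thin black lines and the gene body as a grey bar. The sites of Vcan crowd at its start, Hapln1 has a single coloured site, and Reln has none at its start.

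The Acan locus had no shared site at the gene's own promoter but 2 inside its first intron. The higher, at chr7:79080881-79081060, reached 2.83 and 1.18, and the other, at chr7:79079381-79079442, 0.369 and 0.581. The highest distal site of the locus, 3.94 and 1.82, lay 87578 bp downstream of the Acan start in an intron of Mfge8 (chr7:79140981-79141140), a gene for a secreted protein that bridges dying cells to phagocytes. The 3.94 site held 2 footprints found in each replicate, and the 2.83 site held 1 footprint of 27 bp in replicate 1 that overlapped 2 in replicate 2. Both sites are shown on the plus strand of GRCm38.p6, with the bases where footprints of both replicates met in capitals.
Acan intron 1: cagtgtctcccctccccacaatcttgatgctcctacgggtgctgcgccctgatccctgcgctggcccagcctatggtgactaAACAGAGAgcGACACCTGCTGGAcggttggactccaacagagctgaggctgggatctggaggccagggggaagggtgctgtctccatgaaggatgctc
Mfge8 intron: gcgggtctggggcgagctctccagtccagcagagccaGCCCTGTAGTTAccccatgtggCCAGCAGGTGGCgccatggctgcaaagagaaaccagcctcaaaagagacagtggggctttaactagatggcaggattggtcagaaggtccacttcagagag
In the print of the Mfge8 intron, bases 60 to 71 match the CTCF core pattern in all 12 positions and all 12 lie in a footprint of both replicates. In that of Acan intron 1, bases 93 to 104 match it on the other strand with 1 mismatch, and again all 12 lie in such a footprint.

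The Bcan locus held the highest distal site of all 9 loci, at 6.04 and 2.27, at percentiles 93.2 and 82.7 of shared sites. It lay 331 bp past the 3′ end of Bcan, in sequence annotated to no gene (chr3:87987021-87987200), and was 4.05 times as high as the gene's own promoter peak in replicate 1 and 1.62 times in replicate 2. Its 2 footprints found in both replicates are shown in capitals on the minus strand.
Bcan 3′ side: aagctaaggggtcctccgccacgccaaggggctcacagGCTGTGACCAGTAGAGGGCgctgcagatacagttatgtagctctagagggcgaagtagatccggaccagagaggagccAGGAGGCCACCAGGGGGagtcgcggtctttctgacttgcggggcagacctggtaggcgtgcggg
Bases 46 to 57 match the CTCF core pattern in all positions and bases 123 to 134 match it with 1 mismatch, with 12 and 11 of their bases in those footprints. The other sites of this locus lay 39186 bp downstream of the Bcan start near Nes (2.56 and 1.00), in an intron of the link protein gene Hapln2 (2.26 and 1.06), and at the promoter of Gpatch4 (4.04 and 1.48).

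At Ncan and Hapln4, which lie side by side, promoters of other genes were among the highest sites. The site at Rfxank, for a subunit of the factor that drives MHC class II genes, reached 6.73 and 2.72, and that at Mau2, for a cohesin loader, 4.73 and 3.57. By the mean of both replicates the highest distal site of both loci was in intron 4 of Hapln4 (chr8:70087981-70088100), at 1.99 and 1.41, with 1 footprint of both replicates. Hapln4 thus had a shared site inside the gene, 4584 bp from its start, while its promoter peak was seen in replicate 1 only. A site in an intron of Mef2b, 46048 bp upstream of Ncan, reached 2.19 and 1.19, so that it was the higher in replicate 1, and is shown on the minus strand (chr8:70166821-70167020), again because a footprint of both replicates covers the CTCF core pattern.
Mef2b intron: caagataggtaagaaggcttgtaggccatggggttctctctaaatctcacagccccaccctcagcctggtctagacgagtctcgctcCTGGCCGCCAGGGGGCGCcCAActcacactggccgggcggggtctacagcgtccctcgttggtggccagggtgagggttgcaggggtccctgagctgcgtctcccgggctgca
Bases 92 to 103 match in all 12 positions. The core pattern was searched after the footprint sequences had been seen. Within the central 200 bases it stood in 4 of the 22 distal sites of these loci (18.2%), beside 11.5% of all distal shared sites, and with up to 1 mismatch in 6 of 22 (27.3%), beside 29.4%. These shares describe the letters only.

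All 7 shared sites of Vcan lay within 3063 bp at the start of the gene and none was distal. They were low, from 0.299 to 1.43 in replicate 1 and from 0.377 to 0.914 in replicate 2, and 2 of them were overlaps of only 13 and 15 bp. The 7 sites came from 6 peaks of each replicate, and some peaks gave their height to more than 1 site. With lists cut to equal length 1 of the 7 was left. The highest peak of replicate 1 without a partner in replicate 2, at 2.10, lay 36922 bp upstream of Vcan in an intron of Xrcc4 (chr13:89779361-89779500), and replicate 2 had no interval under an FDR of 0.05 there. Hapln1, whose window overlaps that of Vcan, had 8 peaks in replicate 1 only, the highest of them 1.39 in intron 1, 3415 bp from the start.

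Of the 9 shared sites of Tnr, 8 were in the gene body and 6 were distal. The highest distal site, in intron 1 and 193482 bp from the start (chr1:159717121-159717380), reached 2.47 and 1.64. It is shown as the highest site inside the body of Tnr away from a start, with the footprint of both replicates in capitals, on the plus strand.
Tnr intron 1: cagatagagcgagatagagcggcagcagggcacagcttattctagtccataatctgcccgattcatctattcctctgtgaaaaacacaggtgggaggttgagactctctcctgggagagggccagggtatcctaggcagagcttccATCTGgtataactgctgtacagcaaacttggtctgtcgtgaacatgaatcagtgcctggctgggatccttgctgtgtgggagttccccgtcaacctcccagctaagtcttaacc
The E-box CATCTG, read on the other strand as CAGATG, spans bases 146 to 151, of which 5 are in capitals, and the AP-1 motif TGANTCA begins at base 191. Over all shared sites, 20.2% hold CAGATG and 5.65% hold TGANTCA in the central 200 bases, on either strand. Tnr also had the most peaks of replicate 1 alone, 42. Of these, 17 lay within 7.76 kb that ended 4.08 kb before the end of the gene (chr1:159919893-159927648). Their heights were low, from 0.0642 to 0.535 with a median of 0.187. In replicate 1, 5.28% of the peaks in the shorter list and 5.03% of those in the longer list did not exceed that median. Of the 17, 15 were in the shorter list. Replicate 2 had no peak in the cluster and no interval under an FDR of 0.05 at any of the 17.

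Tnc had 2 shared sites. Beside its promoter, a site in no annotated gene 98783 bp downstream of the start (chr4:63948178-63948286) reached 1.90 in replicate 1 and 0.538 in replicate 2, the largest difference on the log2 scale of all 43 (-1.82). It holds the CTCF core pattern in all positions. The 4 shared sites of Reln were all in its introns, in intron 1 (1.07 and 0.688), intron 5 (0.299 and 0.409), intron 8 (0.882 and 0.678) and intron 31 (0.321 and 0.527). The site in intron 8 had the only footprint found in both replicates. None of the 4 reached the median of all shared sites, 1.48 and 1.09.

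Agreement of the replicates over these loci differed in its 2 directions. Of the 48 replicate 2 peaks in the loci, 41 overlapped a replicate 1 peak, 85.4% (95% exact binomial interval 72.2 to 93.9), beside 81.8% of all replicate 2 peaks. Of the 140 replicate 1 peaks, 42 overlapped a replicate 2 peak, 30% (22.6 to 38.3), beside 38.0% of all. The interval covers counting error only. Without the 17 weak peaks at the end of Tnr the share was 34.1% of 123 peaks. All 17 lacked a partner, so leaving them out could only raise the share. Nothing was left out of the 38.0%. By locus the replicate 1 share ranged from 11.1% at Hapln1 (1 of 9 peaks) to 50% at Vcan (6 of 12), and was 17.6% at Tnr (9 of 51). Peaks without a partner were lower, with a median of 0.548 for the 98 of replicate 1 and 0.592 for the 7 of replicate 2, beside 1.42 and 0.914 for those with a partner. Of the 98, 45 were in the shorter list of replicate 1.

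Over the 43 shared sites the median height was 1.41 in replicate 1 and 0.914 in replicate 2, beside 1.48 and 1.09 over all shared sites. Replicate 1 was the higher at 30 sites and replicate 2 at 13, with a median log2 ratio of -0.44 (replicate 2 over replicate 1). Over all 50780 shared sites replicate 2 was the higher at 14551, and the median log2 ratio was -0.48. The Pearson r of the log10 heights was 0.81 and Spearman's rho was 0.804, across sites that share their libraries and are not independent, beside 0.82 and 0.796 over all shared sites. The sites where replicate 2 was higher included 5 of the 7 sites of Vcan, 4 of the 9 of Tnr and 2 of the 4 of Reln. Sites of Vcan cut from the same peak repeat its height, such as 0.613 in replicate 2 at the first start. The site at Rfxank and the next one, nearest to Mef2b, likewise both carry 2.72 in replicate 2. Replicate 1 had 6.73 and 1.93 there, so the site nearest to Mef2b is among those higher in replicate 2. Sites that share a peak in this way are therefore not separate counts. Footprints numbered 246 in replicate 1 and 75 in replicate 2, a ratio of 3.28, beside 2.29 over the genome. Of these, 11.4% and 42.7% overlapped a footprint of the other replicate, beside 18.4% and 45.8%. The 32 overlaps lay in 20 of the 43 sites and, for 2 of them, outside shared sites. Over the genome, 46453 of 52868 overlaps lay in shared sites.

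**Figure D4:**
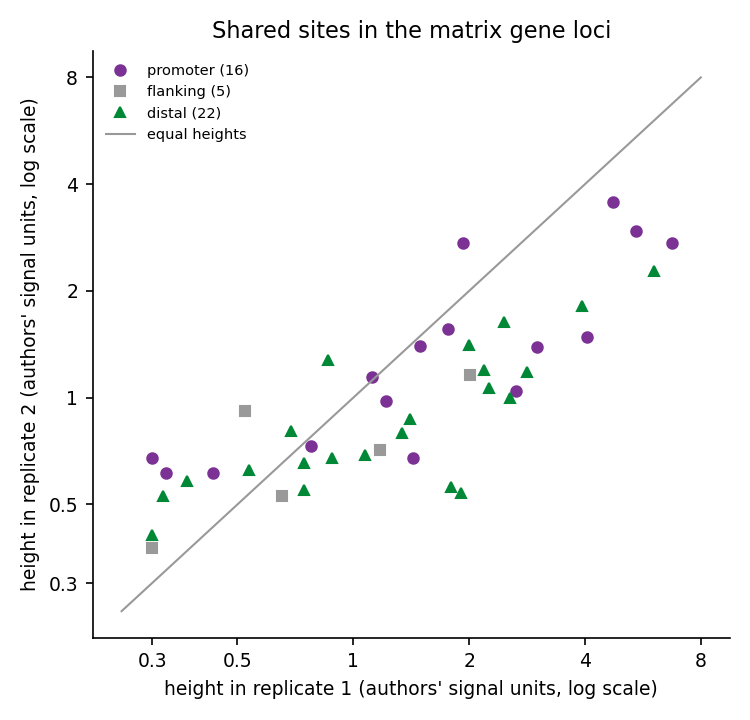
Height of the 43 shared sites in replicate 1 (x axis) and replicate 2 (y axis), authors' signal units on log scales, with promoter sites as circles, sites within 2500 bp of a start as squares and distal sites as triangles, and a line of equal heights. The 30 sites below the line are higher in replicate 1, and 10 of the 13 sites above it lie under 1 in both replicates.

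The genes that act with the net were taken from 8 lists of 77 genes, chosen by function, with earlier results of these data known. Of the 77, 50 had a shared promoter peak (64.9%, beside 57.1% of all genes), 13 had a peak in replicate 1 only, 1 in replicate 2 only, 2 had peaks that did not overlap and 11 had none. Over all genes with a shared promoter peak the median height was 4.06 and 2.46. No list was tested, and no difference between lists is claimed.

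The reelin pathway had a shared peak at 12 of 12 genes, with median heights of 6.32 and 3.24. The highest were Rnf7 (11.8 and 5.59), for the ring protein Rbx2 that helps to degrade the reelin adaptor, and the adaptor Crkl (8.63 and 4.46). The receptors Vldlr (1.36 and 2.08) and Lrp8 (2.63 and 2.07) and the adaptor Dab1 (3.56 and 2.68) had a peak too, while the ligand gene Reln had 0.460 in replicate 1 alone. Synthesis of the chondroitin sulfate chains had a shared peak at 14 of 17 genes (median 2.71 and 2.31). The highest were the sulfotransferase Chst12 (8.63 and 4.28) and the chain polymerase partner Chpf (8.33 and 4.22). Chst13 had no peak, Chst14 had a peak in replicate 1 only (0.989), and at Chst7 the peaks did not overlap (0.545 and 0.333).

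For hyaluronan, the backbone of the net, 4 of 7 genes had a shared peak (median 3.25 and 2.21), led by Cemip2 (5.65 and 3.56) and Cemip (4.02 and 2.496), both linked to hyaluronan breakdown. Of the 3 synthases, Has3 had a shared peak (1.33 and 1.31), Has2 a peak in replicate 1 (0.380) and Has1 none, and the hyaluronidase Hyal1 had a peak in replicate 1 (1.03). Among receptors and ligands of the net 7 of 11 had a shared peak (median 2.71 and 2.31). The chondroitin sulfate receptor Ptprs (10.2 and 5.02) and the tenascin-R partner Cntn1 (4.04 and 2.60) were highest. Otx2, a homeoprotein that nets capture, had no peak, the Nogo receptors Rtn4r (1.93) and Rtn4rl2 (1.30) had a peak in replicate 1 only, and the hyaluronan receptor Cd44 had a peak in replicate 2 only (0.570).

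The list of other chondroitin sulfate proteoglycans of the brain had a shared peak at 3 of 6 genes (median 2.17 and 2.14). Cspg5 (2.17 and 2.51) and Ptprz1 (2.22 and 2.14) led it. The remaining gene with a shared peak, Smoc2 (0.813 and 0.764), codes for a matrix protein that is not such a proteoglycan. Cspg4 (0.701) and Dcn (0.332) had a peak in replicate 1 only and Bgn had none. Proteases of the matrix and their inhibitors had a shared peak at 5 of 12 (median 1.64 and 0.968), led by the inhibitor Timp2 (3.34 and 1.61) and the lectican-cleaving Adamts1 (2.30 and 1.64). Adamts4 (0.925), Adamts5 (0.262) and Timp4 (0.984) had a peak in replicate 1 only, and Mmp2 and Mmp3 were among the 4 with none. The remaining link proteins and tenascins had a shared peak at 0 of 4. Hapln3 (0.390) and Tnn (0.283) had a peak in replicate 1 only, and Hapln2 and Tnxb had none.

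Genes of the fast-spiking interneurons that nets enclose had a shared peak at 5 of 8 (median 1.02 and 1.29), led by the potassium channel genes Kcnc1 (1.93 and 1.75) and Kcna1 (1.02 and 1.52). Pvalb, for parvalbumin, had 1.04 and 0.721, within the range of the member promoters. Slc32a1, the vesicular GABA transporter, had a peak of 0.770 in replicate 1 alone. Gad2 had peaks that did not overlap (0.390 and 0.559), and Lhx6 had none. How many net-bearing cells the tissue held was not measured.

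**Figure D5:**
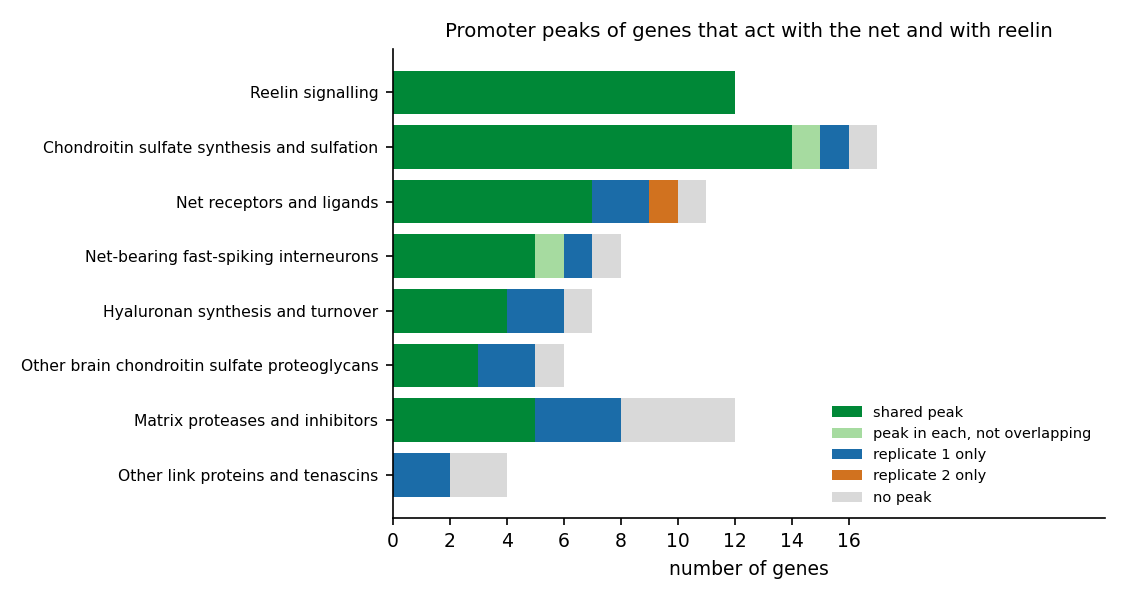
Number of genes (x axis) in each of the 8 lists (rows) by promoter peak: shared, present in each replicate without overlap, in replicate 1 only, in replicate 2 only or absent. The bar for reelin signalling is a shared peak at 12 of 12 genes, and that for the remaining link proteins and tenascins holds 0 of 4.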

How the data were processed

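The 9 genes and all lists were chosen with earlier results of these data known. Per the labels, the authors deposited, for each sample separately on assembly mm10, 2 peak lists, a footprint list and a list of intervals. The deposited peak height was read as signal, of unstated scaling. The deposited interval value, a false discovery rate, was read as a q-value (p-value column), and only intervals under 0.05 are listed. Footprints carried a constant, so only their positions were used. No source used here names the aligner or the callers.

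Both replicates' longer lists were intersected (Python 3.11.15, numpy 2.4.6, scipy 1.17.1), and starts came from GENCODE M21. Shared sites, promoters, loci and distal sites are defined in the text. Nothing was tested between groups, since there was 1 group. Intervals are exact binomial at 95%. The overlap code was checked on simulated lists. Named genes were all members, and in each list the 2 highest by mean height with a shared peak, up to 2 with none in alphabetical order, and those with a peak in 1 replicate where at most 5. The named sites were the highest distal shared site of each locus and the highest peak of 1 replicate alone. Has3, Smoc2, Vldlr, Lrp8, Dab1, Pvalb, the sites at the Tnr end and in Mef2b, and the neighbours' promoters were chosen after their values were seen. Motifs of exact letters were searched on both strands. The alternatives were the shorter lists, lists of equal length (59880 peaks), 50% reciprocal overlap, either replicate alone, the nearest gene only, other windows, flanks and start sets.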

Additional observations from a re-analysis of the deposited data

How the results depend on the processing

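The number of members with a shared promoter peak, 6, was 3 with the shorter lists (51.2% of all genes). It was 5 with 50% reciprocal overlap (43.8%) or a window of 200 bp (54.7%). It stayed at 6 with lists of equal length (54.3%), a window of 2000 bp (60.1%) or the basic transcript set (56.5%). With RefSeq starts, an alternative chosen after seeing the data, it was 5 of 8 (58.1% of genes in that table). With replicate 1 left out it was 6 (58.5% of all genes), and with replicate 2 left out it was 8 (63.4%). The 43 shared sites became 18 with the shorter lists, 24 with 50% reciprocal overlap and 24 without flanks. A single replicate, with overlapping peaks merged, gave from 47 to 140. Counting only sites whose nearest gene was a member left 29, with Ncan going from 8 to 1 and Hapln4 from 7 to 1. The 85.4% of replicate 2 peaks overlapped became 66.7% with lists of equal length and 50% with reciprocal overlap. The median mean height of the shared sites, 1.13, became 1.78 with the shorter lists, and from 0.658 to 0.807 over the peaks of a single replicate. The 32 shared footprints became 21 inside the shared sites of the shorter lists, and a single replicate gave from 75 to 246. Of 72 values of single promoters under alternatives 65 were the same as the main value, and of 72 counts of sites per locus 31 were within 1.5 times of it. With the shorter lists the members' share with a shared promoter peak was below that of all genes (33.3% beside 51.2%), while it was above it with the longer lists (66.7% beside 57.1%). No paired analysis was possible because there was 1 group. The 2 libraries, of unknown depth, limit every count of weak sites.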
